A study of Mus musculus with 4 samples.

Results

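Adhesion genes of mouse neutrophils were followed across vehicle and ruxolitinib treatment: the leukocyte integrin chains Itgam, Itgal, Itgax, Itga4, Itgb1 and Itgb2, the integrin-like gene Itgb2l, the selectin ligand gene Selplg, and Icam1. These 9 genes were taken by symbol from a fixed list, all 9 were found among the 16566 genes of each library, and all 9 passed the filter on low counts that kept 11611 genes. No selectin gene is among the members, which hold a selectin ligand only. RNA was sequenced from neutrophils of C57BL/6 mouse bone marrow at a stated purity above 95%, which the labels describe as kept for 1 h in culture medium (20% FBS). For 1 h the cells received vehicle (80% glucose and 20% PEG300; 2 libraries) or ruxolitinib, which blocks the kinases JAK1 and JAK2 below cytokine receptors (2 libraries), whose concentration the labels give as 0.1 µM in one field and as 1 µM in others. The labels name no genetic change, and they give no age or sex and no number of animals behind a library. Nothing states that libraries of a group came from separate mice or cultures, so every p-value measures the spread between these libraries, which may be technical.

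Integrins are receptors of paired alpha and beta chains that leukocytes hold inactive and switch on by signals from inside the cell. The beta 2 chain, encoded by Itgb2, joins the alpha chain of Itgal to form LFA-1, that of Itgam to form Mac-1, the complement receptor of neutrophils and monocytes, and that of Itgax to form p150,95. LFA-1 and Mac-1 bind ICAM-1, the product of Icam1, on endothelium and on other leukocytes. PSGL-1, the product of Selplg, binds selectins during rolling, the step before firm integrin-mediated arrest. The alpha chain of Itga4 and the beta chain of Itgb1 form VLA-4, a receptor for VCAM-1 and fibronectin, and Itgb2l encodes pactolus, a protein of mouse neutrophils related to the beta 2 chain.

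RefSeq promoter windows of GRCm38.p6, each with 250 bases before and 50 bases from a listed start, were at hand for 6 of the 9 members, and 3 are shown, those of the most variable members Icam1 and Itgax and that of Itgam, the neighbour of Itgax. The Icam1 promoter lies at chr9:21015690-21015989, the Itgax promoter at chr7:128129300-128129599 and the Itgam promoter at chr7:128062390-128062689, all on the plus strand, and RefSeq is the source of the letters. The window's start is the outermost start of the gene for 4 of the 6, Icam1 and Itgam included, and lies 24 bases inside the gene for Itgax. Capitals mark matches, on either strand, to GGNNNTTCC or the same letters with 4 free bases (kB-like), TTCNNNGAA (STAT-like), TGANTCA (AP-1-like) and GAGGAA (PU.1-like).
Icam1: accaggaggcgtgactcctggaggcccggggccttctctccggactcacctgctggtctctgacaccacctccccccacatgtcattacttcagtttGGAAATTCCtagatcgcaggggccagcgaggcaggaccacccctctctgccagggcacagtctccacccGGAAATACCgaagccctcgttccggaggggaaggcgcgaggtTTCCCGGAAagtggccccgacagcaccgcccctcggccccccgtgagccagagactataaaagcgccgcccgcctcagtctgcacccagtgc
Itgax: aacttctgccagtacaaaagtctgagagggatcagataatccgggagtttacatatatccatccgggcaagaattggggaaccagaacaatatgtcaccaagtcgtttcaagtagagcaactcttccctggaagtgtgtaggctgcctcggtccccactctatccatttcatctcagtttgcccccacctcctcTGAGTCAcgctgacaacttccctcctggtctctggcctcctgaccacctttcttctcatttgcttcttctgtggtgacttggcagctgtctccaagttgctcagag
Itgam: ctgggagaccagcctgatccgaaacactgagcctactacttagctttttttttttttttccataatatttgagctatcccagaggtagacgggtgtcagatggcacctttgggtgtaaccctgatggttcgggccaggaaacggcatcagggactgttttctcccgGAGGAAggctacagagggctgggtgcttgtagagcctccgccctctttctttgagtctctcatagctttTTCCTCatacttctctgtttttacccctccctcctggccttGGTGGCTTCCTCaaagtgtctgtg
In Icam1 the kB-like matches GGAAATTCC and GGAAATACC began at -153 and -84 from the window's start, and the STAT-like match TTCCCGGAA at -42. In Itgax the only match was the AP-1-like TGAGTCA, at -56 from the window's start, which is not the gene start printed for Itgax. In Itgam the PU.1-like letters occurred 3 times, with 1 match overlapping the kB-like GGTGGCTTCC. Of 27025 mouse promoters of the same length, 18.4% held GGNNNTTCC, 18.0% its form with 4 free bases, 8.47% TTCNNNGAA, 7.93% TGANTCA and 28.3% GAGGAA. Of the 6 member promoters, 1 held the STAT-like letters and 3 held GGNNNTTCC. A match describes these letters and is not evidence of binding.

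Before the members, the libraries themselves are described in brief. They held 14235509 to 15419580 rounded counts. Vehicle replicate 1 and ruxolitinib replicate 1 were the most similar pair, whose spread beyond counting noise (biological coefficient of variation, BCV) was 3.63%, while vehicle replicate 2 stood apart, with a BCV of 31.1% to 35.2% against each of the others. Ruxolitinib replicate 2 also differed from ruxolitinib replicate 1, with a BCV of 17.7%. All 14 neutrophil markers checked, among them Ly6g, S100a8 and Csf3r, were at or above 1 CPM in every library. Their summed level was 88200 to 109000 CPM (counts scaled to equal TMM-adjusted library sizes). Single markers differed more: Csf3r measured 1720 and 2790 CPM in the vehicle libraries and 1760 and 1600 CPM in the treated ones. Retnlg stood at 4590 and 4440 CPM (vehicle) against 4900 and 7960 CPM (ruxolitinib). Of the 14, 6 had a log2 fold change above 0 and 8 below. Summed erythroid markers were at 8927 to 9276 CPM in 3 libraries and at 23210 CPM in ruxolitinib replicate 2, and summed eosinophil and basophil markers at 1022 to 1577 CPM in those 3 and at 403 CPM in ruxolitinib replicate 2. Summed B-lineage markers were at 1231 to 1471 CPM in those 3 and at 2116 CPM in ruxolitinib replicate 2, and summed T and NK markers at 42.9 to 51.3 CPM and at 66.2 CPM. Not every eosinophil and basophil marker was low in ruxolitinib replicate 2. Prg2 measured 489 and 681 CPM in the vehicle libraries and 563 and 208 CPM in the treated ones. Mcpt8 stood at 11.7 and 8.28 CPM (vehicle) against 10.3 and 13.4 CPM (ruxolitinib). Of the 12 markers in that list, 10 had a log2 fold change below 0 and 2, Mcpt8 and Gata2, above. The part of these marker levels in the results was not tested. In bulk RNA, fewer cells of a type and less RNA per cell cannot be told apart.

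By level per gene length, Itgb2 and Itgam led the group. The deposited TPM (abundance scaled to gene length and library total) averaged 1081 ± 178 for Itgb2 and 973 ± 214 for Itgam (SD, n = 4 libraries), a difference smaller than the spread, although Itgb2 was the higher in 4 of 4 libraries. Selplg followed at 590 ± 122 TPM, Itgb2l at 446 ± 96.6 TPM and Itgal at 215 ± 47.1 TPM. Icam1 averaged 108 ± 52.0 TPM, Itga4 45.9 ± 13.6 TPM, Itgb1 30.6 ± 3.16 TPM and Itgax 24.1 ± 11.2 TPM. Itgb1 and Itgax did not differ beyond their spread. Icam1 was above Itga4 in 3 of 4 libraries and below it in vehicle replicate 2.

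The alpha partners of the beta 2 chain kept similar proportions in all libraries except for Itgax. Itgam made up 78.8% and 81.7% of the summed TPM of Itgam, Itgal and Itgax with vehicle, and 80.1% and 80.4% with ruxolitinib. Itgal made up 17.2% to 18.4%. Itgax made up 2.83% and 1.07% with vehicle and 2.18% and 1.85% with ruxolitinib, so its 2 vehicle libraries enclosed those of the treated cells. The summed alpha TPM was 1.18 and 1.09 times that of Itgb2 with vehicle and 1.19 and 0.989 times with ruxolitinib. The ratio of Itga4 to Itgb1 in TPM was 1.32 and 2.36 with vehicle and 1.24 and 1.18 with ruxolitinib, the high value being that of vehicle replicate 2. These ratios describe RNA, not assembled receptors. The deposited TPM of a gene was a median of 1.71 to 1.73 times its FPKM in 3 libraries. In ruxolitinib replicate 2 it was 1.46 times. The part of this ratio in the TPM levels of that library was not tested.

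**Figure D1:**
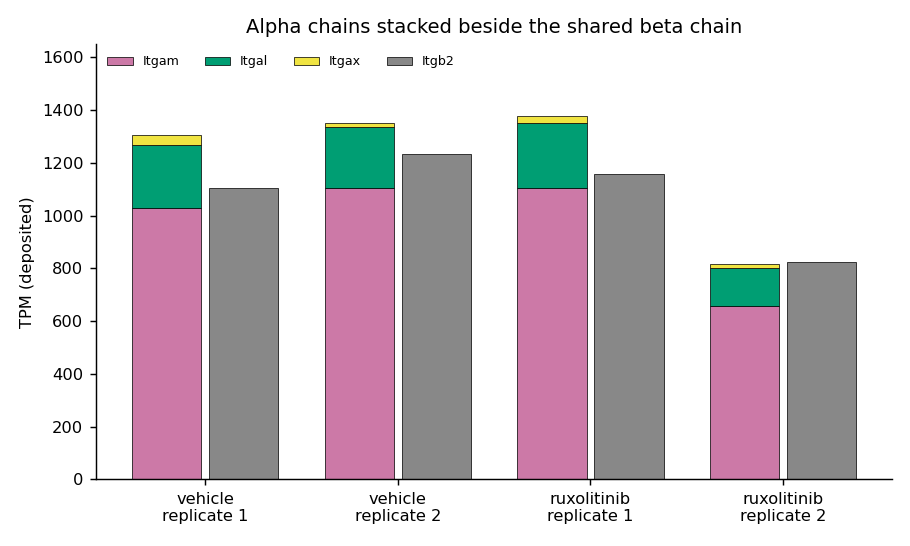
Deposited TPM of the beta 2 integrin genes in each of the 4 libraries, with the alpha chain genes Itgam, Itgal and Itgax stacked beside Itgb2. The stacks reach 1304, 1350 and 1379 TPM in 3 libraries and 816.5 TPM in ruxolitinib replicate 2, where Itgb2 is also lowest at 826 TPM.

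The comparison of ruxolitinib with vehicle asks whether adhesion transcripts differ within 1 h of JAK inhibition. No member passed the test: with edgeR's quasi-likelihood test at an adjusted p below 0.05, 0 of 9 members were higher and 0 of 9 lower, against 0% of all 11611 genes in either direction. At an unadjusted p below 0.05 the main edgeR fit held 0 members (0.56% of all genes higher, 1.38% lower), as it did with RLE scaling. DESeq2 (234 of 16019 genes at that level, both directions together) and limma-voom (188 of 11611) each held Icam1 alone. So did edgeR with the filter of 1 count in any library (332 of 16019) or with a replicate block (515 of 11611). Limma also held it alone with the length trend removed (138 of 11599). On log2(TPM + 1) (301 of 11611) and log2(TPM + 0.1) (299 of 11611), limma did the same. None of these fits called any member after adjustment. Over all genes they called 0 in either direction, except for the replicate block, with 9 higher and 7 lower. The members' median log2 fold change was -0.15, beside -0.00 over all genes, with 2 members above 0 and 7 below. Both ruxolitinib libraries lay above both vehicle libraries for 2 of 9 members, Icam1 and Itgb1 (14.5% of all genes), and below them for 0 of 9 (12.8%).

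Icam1 (Entrez 15894; chromosome 9, 21015940 to 21028814), the ligand gene, had the largest difference among the members. It measured 168 and 43.0 CPM in the vehicle libraries and 185 and 250 CPM in the treated ones. Vehicle replicate 2 was the low library, and the other vehicle library lay close to the lower of the ruxolitinib libraries. The log2 fold change was 1.05 ± 0.50 (SE; 2 libraries on each side; 95% interval -0.05 to 2.14; adjusted p = 0.975 by edgeR, and 3.38e-07 to 1 over the alternatives). The size of the difference rested on single libraries: the log2 fold change was 2.35 without vehicle replicate 1, where Icam1 was called (edgeR adjusted p = 3.38e-07), and 0.37 without vehicle replicate 2 (edgeR adjusted p = 1). In the former fit, 1 vehicle library remains and borrows its spread from the treated pair, and 7.13% of all genes were called higher. Leaving out vehicle replicate 2, ruxolitinib replicate 1 or ruxolitinib replicate 2 in turn, 0 of 9 members were called in either direction, against (in that order) 0.00846%, 0.0333% and 0.00832% of all genes higher and 0.00846%, 0.05% and 0.0416% lower.

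For Icam1 the gap between the vehicle libraries was larger than any ruxolitinib difference from vehicle replicate 1. Icam1 in vehicle replicate 2 was at 0.256 times its level in vehicle replicate 1 (exact binomial 95% interval 0.235 to 0.279, from 659 and 2645 counts), at the 1.15th percentile of all genes for that pair. Against vehicle replicate 1, ruxolitinib replicate 2 stood at 1.49 times, at the 91.7th percentile of all genes for that pair. Ruxolitinib replicate 1 stood at 1.10 times vehicle replicate 1 (1.05 to 1.17), and ruxolitinib replicate 2 at 1.35 times ruxolitinib replicate 1 (1.28 to 1.42). These intervals cover counting error only and compare libraries, not treatments. Highest over lowest library, Icam1 spanned 5.82-fold, at the 99.4th percentile of the 5806 genes at or above the median level of 20.6 CPM, whose median span was 1.48-fold.

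**Figure D2:**
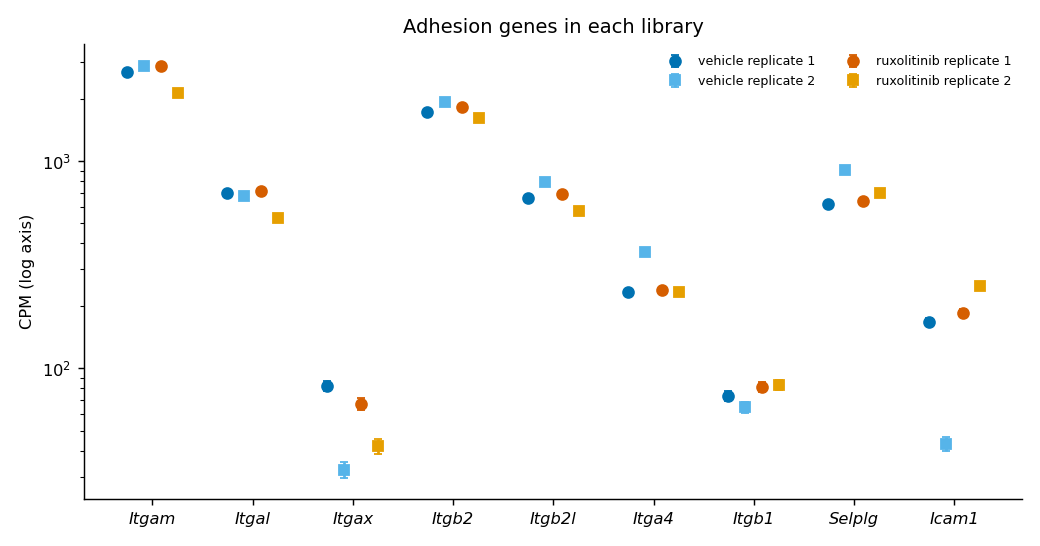
CPM of the 9 adhesion genes in each library on a log axis, with vertical bars for the exact Poisson 95% interval of the count, mostly hidden by the symbols. Icam1 in vehicle replicate 2, at 43.0 CPM, lies far below its other 3 libraries at 168 to 250 CPM, while Itgb2 stays between 1612 and 1935 CPM.

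Of the genes at or above the median level, those whose centred log2 CPM over the 4 libraries lay nearest to Icam1 were Coq8a, which encodes a mitochondrial protein of coenzyme Q synthesis, Sod2, the mitochondrial superoxide dismutase, and Gpr132, a G protein-coupled receptor. Their distances were 0.181, 0.184 and 0.234 log2 units over 5708 candidate genes. Sod2 measured 220 and 60.5 CPM in the vehicle libraries and 219 and 314 CPM in the treated ones. With 4 libraries, a near match in pattern is a description of those libraries.

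**Figure D3:**
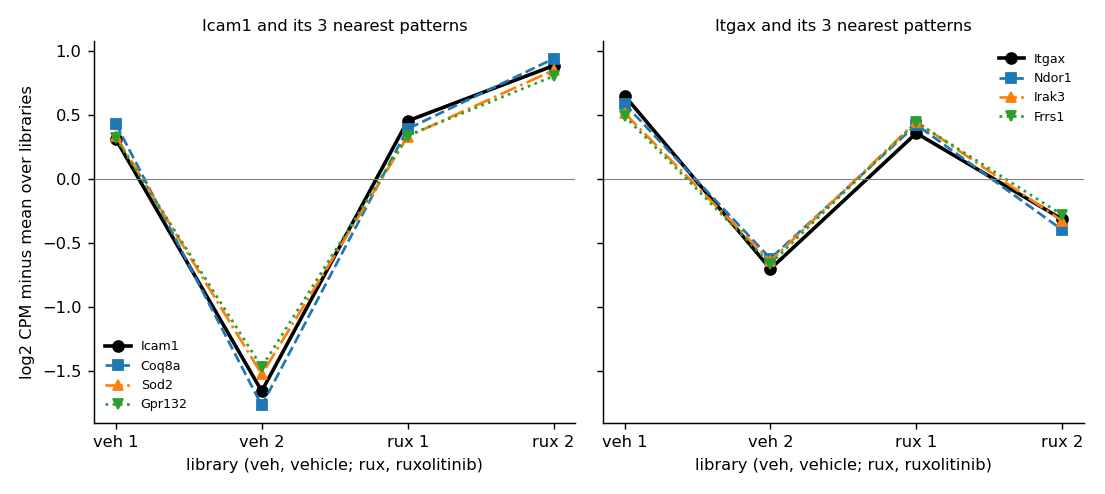
Log2 CPM minus its mean over the 4 libraries for Icam1 (left) and Itgax (right), each with the 3 genes of nearest pattern, where lines only join the points of a gene. All 4 genes on the left are lowest in vehicle replicate 2 and highest in ruxolitinib replicate 2, and all 4 on the right are highest in vehicle replicate 1 and lowest in vehicle replicate 2.

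Itgax (Entrez 16411; chromosome 7, 128129526 to 128150657), the alpha chain gene of p150,95, differed more within the groups than between them. It measured 82.3 and 32.2 CPM in the vehicle libraries and 67.2 and 42.1 CPM in the treated ones. Both replicate 1 libraries were high and both replicate 2 libraries low, and the groups overlapped. Ruxolitinib minus vehicle gave a log2 fold change of -0.07 ± 0.42 (SE; 2 libraries on each side; 95% interval -0.98 to 0.85; adjusted p = 0.992 by edgeR, and 0.0652 to 1 over the alternatives). It was 0.77 without vehicle replicate 1 and -0.60 without vehicle replicate 2, neither called.

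Vehicle replicate 2 stood at 0.392 times vehicle replicate 1 for Itgax (exact binomial 95% interval 0.352 to 0.435), and ruxolitinib replicate 2 at 0.627 times ruxolitinib replicate 1 (0.565 to 0.696). Itgax also marks dendritic cells and macrophages. The dendritic cell markers, of which 3 of the 9 measured were at or above 1 CPM in every library, summed to 31.0 and 25.3 CPM in the vehicle libraries and to 31.2 and 31.5 CPM in the treated ones, and the defining gene Zbtb46 was at 4.89, 0.457, 3.79 and 3.09 CPM in that order. In the same order, the defining genes Xcr1 and Clec9a were at 0.254, 0.783, 0.399 and 0.221 CPM and at 1.21, 3.39, 0.997 and 0.368 CPM. Zbtb46 was thus lowest, and Xcr1 and Clec9a highest, in vehicle replicate 2, where Itgax was lowest. None of these 3 marker genes was above 4.89 CPM in any library, so their order rests on low counts. The 13 monocyte and macrophage markers, all at or above 1 CPM in every library, summed to 1224 and 1300 CPM with vehicle and to 1206 and 1399 CPM with ruxolitinib. Their part in the Itgax values was not tested. Nearest in pattern were Ndor1, a flavin oxidoreductase gene, Irak3, an inhibitor of interleukin 1 and Toll-like receptor signalling, and Frrs1, a ferric-chelate reductase gene, at distances of 0.148, 0.173 and 0.187 log2 units.

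Itgam (Entrez 16409; chromosome 7, 128062640 to 128118491), the alpha chain gene of Mac-1, measured 2683 and 2889 CPM in the vehicle libraries and 2890 and 2141 CPM in the treated ones. Ruxolitinib replicate 2 was the low library, and the other 3 lay together. Its log2 fold change was -0.15 ± 0.26 (SE; 2 libraries on each side; 95% interval -0.71 to 0.42; adjusted p = 0.976 by edgeR), and it was 0.054 without ruxolitinib replicate 2. Itgal (Entrez 16408; chromosome 7, 127296139 to 127335137), the alpha chain gene of LFA-1, measured 697 and 677 CPM in the vehicle libraries and 714 and 528 CPM in the treated ones. Its ruxolitinib replicate 2 was again the low library, at 0.74 times ruxolitinib replicate 1 (exact binomial 95% interval 0.718 to 0.763), beside 0.741 times for Itgam (0.73 to 0.752). The log2 fold change of Itgal was -0.15 ± 0.28, and 0.055 without ruxolitinib replicate 2.

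Itgam and Itgax lie 11034 bases apart on chromosome 7 in RefSeq, and Itgal 727502 bases from Itgam. Ruxolitinib replicate 2 differed from ruxolitinib replicate 1 by a log2 of -0.43 for Itgam, -0.43 for Itgal and -0.67 for Itgax, of which Itgax was past 1.5-fold (8.28% of all genes were lower and 7.91% higher; 0 of 9 members were higher). Summed erythroid markers were 23210 CPM in that library, as given above, and their part in these differences was not tested.

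Itgb2 (Entrez 16414; chromosome 10, 77530329 to 77565708), the shared beta chain gene, varied least of the members in CPM. It measured 1731 and 1935 CPM in the vehicle libraries and 1816 and 1612 CPM in the treated ones. The groups overlapped, and the 4 libraries had a coefficient of variation of 7.69%. In TPM that of Itgb2 was 16.5%, and Itgb1 varied least at 10.3%. The log2 fold change was -0.10 ± 0.25 (SE; 2 libraries on each side; 95% interval -0.65 to 0.45; adjusted p = 0.979 by edgeR). Its relative Itgb2l (Entrez 16415; chromosome 16, 96422288 to 96443664) measured 662 and 793 CPM in the vehicle libraries and 695 and 573 CPM in the treated ones, with vehicle replicate 2 high and ruxolitinib replicate 2 low. The log2 fold change of Itgb2l was -0.20 ± 0.27 (95% interval -0.79 to 0.40). Itgb2l TPM was 0.408 and 0.442 times Itgb2 TPM with vehicle and 0.408 and 0.38 times with ruxolitinib.

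Itga4 (Entrez 16401; chromosome 2, 79255426 to 79333114), the alpha chain gene of VLA-4, measured 232 and 365 CPM in the vehicle libraries and 239 and 234 CPM in the treated ones. Vehicle replicate 2 was the high library, and the other 3 differed by little. This gave a log2 fold change of -0.34 ± 0.30 (SE; 2 libraries on each side; 95% interval -1.003 to 0.33; adjusted p = 0.975 by edgeR), and 0.016 without vehicle replicate 2. Itgb1 (Entrez 16412; chromosome 8, 128685654 to 128733579), which encodes its beta partner, measured 73.7 and 64.8 CPM in the vehicle libraries and 80.9 and 83.1 CPM in the treated ones. Both treated libraries lay above both vehicle libraries, with a log2 fold change of 0.24 ± 0.27 (95% interval -0.35 to 0.84; edgeR adjusted p = 0.975). VCAM-1, a ligand of VLA-4, is encoded by Vcam1, which measured 39.1 and 66.7 CPM in the vehicle libraries and 42.1 and 30.0 CPM in the treated ones.

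Selplg (Entrez 20345; chromosome 5, 113817798 to 113832528), which encodes the selectin ligand PSGL-1, measured 622 and 905 CPM in the vehicle libraries and 640 and 698 CPM in the treated ones. Vehicle replicate 2 was the high library, at 1.46 times vehicle replicate 1 (exact binomial 95% interval 1.42 to 1.49). The log2 fold change was -0.19 ± 0.28 (SE; 2 libraries on each side; 95% interval -0.82 to 0.43; adjusted p = 0.975 by edgeR), and 0.096 without vehicle replicate 2.

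**Figure D4:**
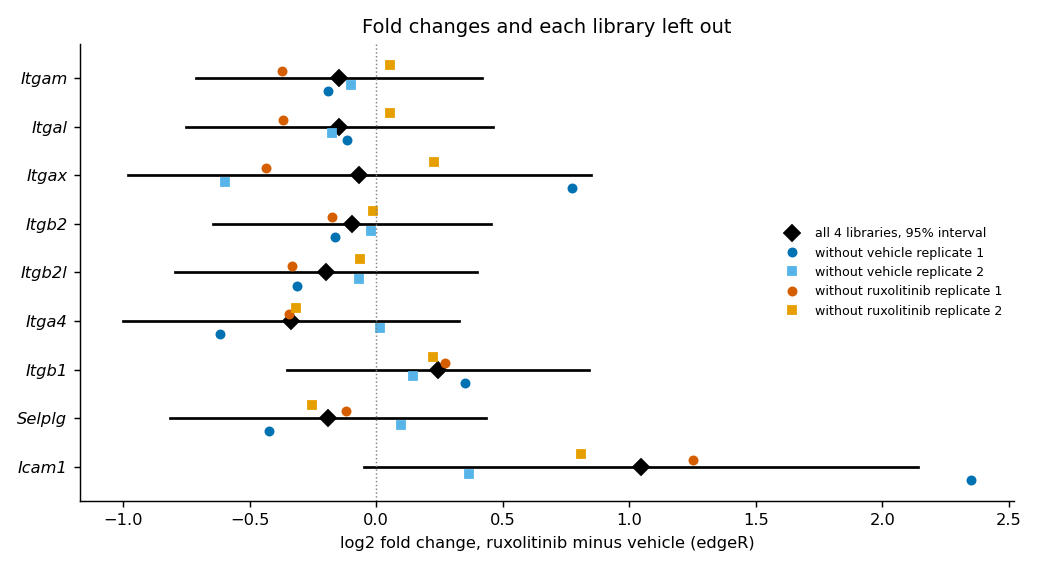
Log2 fold change of each member, ruxolitinib minus vehicle, from edgeR on all 4 libraries (diamonds with 95% intervals) and with each library left out (coloured symbols). The intervals of all 9 members include 0, and the Icam1 estimate is 0.37 when vehicle replicate 2 is left out and 2.35 when vehicle replicate 1 is.

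Single libraries set beside vehicle replicate 1 show where the members differed. In ruxolitinib replicate 1, 0 of 9 members were past 1.5-fold in either direction (1.71% of all genes higher, 1.95% lower), and the members' log2 differences ran from -0.29 for Itgax to 0.14 for Icam1. In vehicle replicate 2, 1 member, Itga4, was higher by more than 1.5-fold (16.9% of all genes) and 2, Icam1 and Itgax, were lower (17.3%). In ruxolitinib replicate 2, 1 member, Itgax, was lower past 1.5-fold (8.54%) and 0 were higher (7.95%). Set beside vehicle replicate 2, both Icam1 and Itgax were higher past 1.5-fold in ruxolitinib replicate 1 (2 of 9; 16.6% of all genes) and Icam1 was in ruxolitinib replicate 2 (1 of 9; 20.9%), while Itga4 was lower in each (1 of 9; 16.1% and 20.6%). Vehicle replicate 2 was the highest library for 4 of 9 members and the lowest for 3. Of all genes at or above the median level, it was highest for 38.2% and lowest for 43.0%. Ruxolitinib replicate 2 was the highest for 2 members and the lowest for 4, against 33.6% and 29.6% of those genes.

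**Figure D5:**
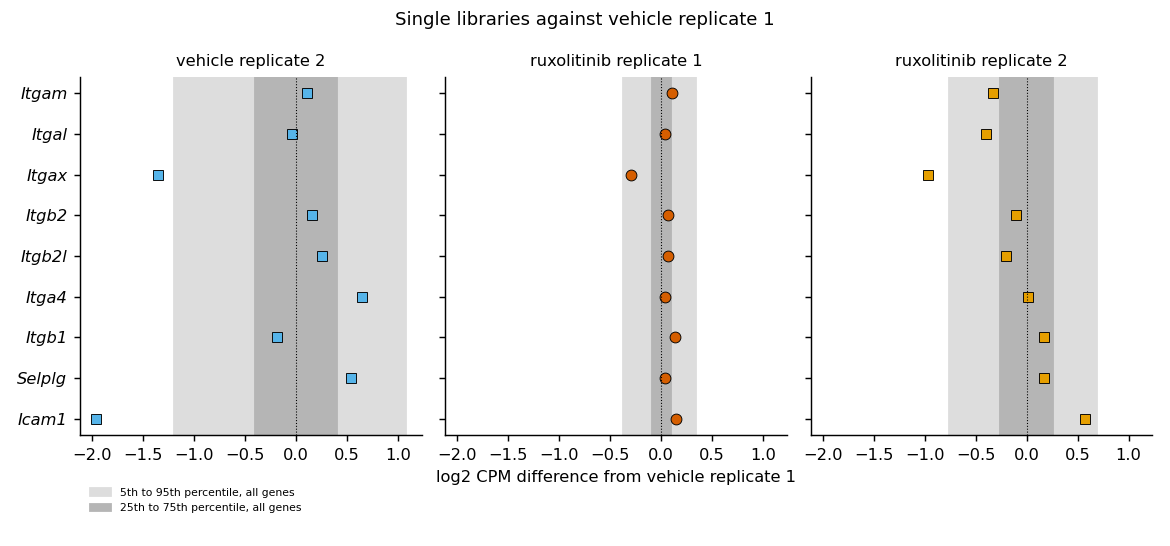
Log2 CPM difference of each member from vehicle replicate 1 in the other 3 libraries, over shaded bands for the middle 50% and 90% of all genes tested. In ruxolitinib replicate 1 all members lie within the wide band, whereas Icam1 and Itgax in vehicle replicate 2 and Itgax in ruxolitinib replicate 2 lie below it.

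Genes of integrin activation, the talin, kindlin and Rap1 machinery that switches the receptors on and ties them to actin, showed 0 calls in either direction among 42 tested. Their median log2 fold change was -0.18, beside -0.00 over all genes, with 13 above 0 and 29 below, 0 at an unadjusted p below 0.05, and their median in vehicle replicate 2 was 0.36 above vehicle replicate 1. Tln1, which encodes talin, measured 1102 and 1636 CPM in the vehicle libraries and 1195 and 978 CPM in the treated ones, and the actin crosslinker gene Flna stood at 2600 and 3159 CPM (vehicle) against 2884 and 2216 CPM (ruxolitinib). The smallest unadjusted p values belonged to Sipa1, a Rap1 GTPase-activating protein gene, Apbb1ip, which encodes the Rap1 effector RIAM, and Rasgrp4, a Ras activator gene. Sipa1 measured 194 and 454 CPM in the vehicle libraries and 205 and 194 CPM in the treated ones, a log2 fold change of -0.70 ± 0.37 (SE; 2 libraries on each side; adjusted p = 0.975 by edgeR). Apbb1ip stood at 186 and 361 CPM (vehicle) against 194 and 171 CPM (ruxolitinib), and Rasgrp4 stood at 279 and 653 CPM (vehicle) against 296 and 302 CPM (ruxolitinib), so that vehicle replicate 2 was the high library for each. Without vehicle replicate 1, 2 of the 42 were called higher and 5 lower, these 3 among the latter, where 7.13% and 6.62% of all genes were called.

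Among the other integrin chain genes, 14 of 20 measured were tested, with 0 calls, 0 at an unadjusted p below 0.05 and a median log2 fold change of -0.24 (6 above 0, 8 below). Itga5, the alpha chain gene of the main fibronectin receptor, measured 62.8 and 9.65 CPM in the vehicle libraries and 68.2 and 46.1 CPM in the treated ones. Its log2 fold change was 0.66 ± 0.61 (SE; 2 libraries on each side; adjusted p = 0.975 by edgeR), and 2.58 without vehicle replicate 1, where it was called (edgeR adjusted p = 2.15e-08). Vehicle replicate 2 was thus the low library for Itga5 as for Icam1. Itgb3, the beta chain gene of the vitronectin receptor and of the platelet integrin, measured 92.9 and 105 CPM in the vehicle libraries and 88.4 and 90.6 CPM in the treated ones. Itga2b, the alpha chain gene of the platelet integrin, measured 7.30 and 9.72 CPM in the vehicle libraries and 7.71 and 3.31 CPM in the treated ones, and Itgad, a further alpha partner of the beta 2 chain, stood at 3.11 and 6.46 CPM (vehicle) against 2.72 and 3.60 CPM (ruxolitinib). Itga1, a collagen receptor chain gene, stayed at or below 2.22 CPM. The 10 megakaryocyte and platelet markers, which include Itga2b and Itgb3, summed to 104 to 125 CPM, with 4 of them at or above 1 CPM in every library.

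Genes that build selectin ligands on PSGL-1, such as glycosyltransferases and the GDP-fucose transporter, showed 0 calls among 23 tested, 0 at an unadjusted p below 0.05 and a median log2 fold change of -0.10 (7 above 0, 16 below). The GDP-fucose transporter gene Slc35c1 measured 24.8 and 46.0 CPM in the vehicle libraries and 24.0 and 17.9 CPM in the treated ones, a log2 fold change of -0.75 ± 0.35 (SE; 2 libraries on each side; adjusted p = 0.975 by edgeR). The tyrosine sulfotransferase gene Tpst2 stood at 45.3 and 67.6 CPM (vehicle) against 42.3 and 41.6 CPM (ruxolitinib), and the sialyltransferase gene St3gal2 stood at 35.95 and 57.9 CPM (vehicle) against 39.5 and 32.3 CPM (ruxolitinib). All 3 were highest in vehicle replicate 2. The galactosyltransferase gene B4galt1 measured 168 and 128 CPM in the vehicle libraries and 171 and 202 CPM in the treated ones. Gcnt1, which encodes the core 2 branching enzyme, stood at 149 and 109 CPM (vehicle) against 148 and 96.8 CPM (ruxolitinib). B4galt1 was lowest in vehicle replicate 2, and both replicate 2 libraries were low for Gcnt1. Fut7, the fucosyltransferase gene of selectin ligands, named after its values were seen, stood at 5.14 and 7.50 CPM (vehicle) against 5.18 and 4.85 CPM (ruxolitinib).

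The other adhesion receptors and ligands held 0 calls among 30 tested, 0 at an unadjusted p below 0.05 and a median log2 fold change of -0.03 (14 above 0, 16 below). Cd177, a neutrophil surface protein gene, measured 2429 and 2572 CPM in the vehicle libraries and 2580 and 2909 CPM in the treated ones. The hyaluronan receptor gene Cd44 stood at 1806 and 1084 CPM (vehicle) against 1811 and 1661 CPM (ruxolitinib). Jaml, a junctional adhesion molecule gene of leukocytes, stood at 53.2 and 146 CPM (vehicle) against 59.1 and 71.3 CPM (ruxolitinib), and Alcam, an immunoglobulin-family adhesion molecule gene, stood at 31.8 and 50.2 CPM (vehicle) against 31.4 and 24.6 CPM (ruxolitinib). Cd44 was lowest, and Jaml and Alcam highest, in vehicle replicate 2. Of the other ICAM genes, Icam2, named after its values were seen, measured 13.9 and 10.8 CPM in the vehicle libraries and 11.2 and 11.2 CPM in the treated ones.

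Sheddases, matrix proteases and their inhibitors held 0 calls among 13 tested and 0 at an unadjusted p below 0.05 in the main edgeR fit. Their median log2 fold change was -0.13 (4 above 0, 9 below). DESeq2 held Adam19 at an unadjusted p below 0.05 and limma-voom none of them. With edgeR, the filter of 1 count in any library and the replicate block each held Adam19, and limma on log2(TPM + 1) held Mmp25. The numbers of all genes at that level in these fits are given above with the members. Adam19, a membrane metalloprotease gene, measured 83.0 and 392 CPM in the vehicle libraries and 96.9 and 116 CPM in the treated ones, a log2 fold change of -1.16 ± 0.54 (SE; 2 libraries on each side; adjusted p = 0.975 by edgeR). The leukolysin gene Mmp25 stood at 312 and 510 CPM (vehicle) against 335 and 218 CPM (ruxolitinib), and the sheddase gene Adam10 stood at 99.0 and 135 CPM (vehicle) against 96.3 and 93.6 CPM (ruxolitinib). These 3 genes were highest in vehicle replicate 2. The granule protease genes Mmp9 and Mmp8 were the most abundant by CPM. Mmp9 stood at 4455 and 6217 CPM (vehicle) against 4844 and 4324 CPM (ruxolitinib), and Mmp8 stood at 4268 and 5470 CPM (vehicle) against 4280 and 4653 CPM (ruxolitinib). Over these 5 lists of related genes, DESeq2 and limma-voom called 0 genes after adjustment. Over all genes they also called 0, of 16019 and 11611 tested in that order.

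Annotation limits how far some members' counts can be separated. In GENCODE transcripts of GRCm38, 66.3% of the 50-base stretches of Itgam also occurred in Gm49368, a gene not analysed here, and 8.02% of those of Itgax in Itgad. In RefSeq, Itgb2l lies wholly within the span of Igsf5, which GENCODE places on the opposite strand and which had 9 to 18 counts. Itgb2l also shares 17495 bases of its span with the long noncoding RNA gene Gm32358, whose counts were not examined. The last 624 bases of Itga4 overlap Cerkl on the opposite strand, which had 35 to 102 counts. The sources used here do not say whether counting used strand.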

How the data were processed

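RNA of 4 neutrophil libraries, 2 per treatment, was analysed. The submitters' processing notes name Bowtie2, RSEM, DESeq2 and the build GRCm38.p6. Versions, the order of steps and the annotation are not given in the sources used here. The authors deposited a read count for each gene, per the file headers. The deposited values are estimated counts, since only 91.0% to 91.1% of values were whole (tolerance 1e-06). TPM and FPKM, scaled by the authors to length and library size, stand beside it. TPM was used for levels between genes and for 2 alternatives, and FPKM to derive relative length.

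Counts were rounded. Genes were kept by filterByExpr (a count of about 10, total 15) and TMM-scaled. Ruxolitinib was compared with vehicle by edgeR 4.0.16's quasi-likelihood test in R 4.3.3, group as the only term, Benjamini-Hochberg over 11611 genes, threshold 0.05. The standard error is the log2 fold change over the root of F. An exact permutation test of 2 against 2 cannot go below p = 0.333, so none was run. The common BCV was 25.7%. The procedure was tested on simulated data. Coordinates and promoters come from RefSeq tables of GRCm38.p6, to which 16466 of 16566 identifiers matched.

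Treatments come from the treatment label and replicate numbers from the titles, where a title without a final number was taken as replicate 1. The members and gene lists were chosen with earlier results of these data known. Named were all members, the 2 most abundant genes and the 3 smallest p-values of each list, and for members spanning at least 2-fold the 3 genes of nearest pattern among non-members at or above the median level, with pseudogenes, Rik clones and predicted genes passed over. Alternatives were RLE scaling, DESeq2 1.42.0, limma-voom (limma 3.58.1), filters of 1 count in any library and of 50 counts in 2 libraries, a replicate block, each library left out, removal of a trend on gene length, and log2(TPM + 1) and log2(TPM + 0.1) with limma.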

Additional observations from a re-analysis of the deposited data

How the results depend on the processing

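Of 117 member values under alternatives, 107 kept direction and call, 1 gained a call (Icam1 without vehicle replicate 1) and 9 changed sign. Itgax, with a log2 fold change of -0.07, was at 0.048 with limma-voom, 0.044 with the replicate block, 0.080 with the length trend removed and -0.60 to 0.77 with single libraries left out, which included 0.77 without vehicle replicate 1 and 0.23 without ruxolitinib replicate 2. With single libraries left out, Itga4 ranged from -0.62 to 0.016 and Selplg from -0.43 to 0.096, both positive without vehicle replicate 2, and Itgam from -0.37 to 0.054 and Itgal from -0.37 to 0.055, both positive without ruxolitinib replicate 2. In the same fits, all genes called higher ranged from 1 to 853 and lower from 1 to 792, members called higher from 0 to 1, and genes of the 5 related lists called higher from 0 to 4 and lower from 0 to 12, each highest without vehicle replicate 1. With the replicate block, 9 genes were called higher and 7 lower, no member or list gene among them (Icam1 at 1.34, edgeR adjusted p = 0.157). Deviations of same-numbered libraries correlated at r = 0.0418 across genes, and no label ties same-numbered libraries together. Vehicle and ruxolitinib replicate 1 had a BCV of 3.63% and the replicate 2 libraries one of 35.2%, and whether same-numbered libraries share a source was not tested. On the TPM scale the median of all genes moved to -0.13 (-0.15 with a pseudocount of 0.1) and that of the members to -0.305, so that members are read against that shift. With this spread and 2 libraries a group, the interval of each member spans more than 1 log2 unit.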
